A study of Mus musculus with 12 samples.

Results

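On day 14, spleens of mice given ovalbumin (OVA, an egg-white protein used to sensitise mice) were compared with spleens of mice given saline. The 6 arrays were chosen by the titles of the samples, 4 as OVA and 2 as control of day 14, of 12 arrays in the series. All mice were female BALB/c, 6 weeks old per the labels. OVA was injected into the peritoneum at 2 mg/kg on days 1, 3 and 5, and controls received normal saline on the same schedule. The labels call the OVA mice allergic and give neither an adjuvant nor an airway challenge, and no measure of allergy accompanies the arrays. The titles number the arrays and nothing else says that each came from a mouse of its own, so the p-values below measure the spread between these samples. The other 6 arrays, 4 OVA and 2 control of day 28, were used for the spread and for the comparison between days.

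The spleen filters blood and holds B cells, T cells, dendritic cells and macrophages, and protein antigen given into the peritoneum is presented to T cells there. T cells of the T helper 2 kind then help B cells switch to antibody classes that include IgE, the antibody of immediate allergy. The array reads mostly long non-coding RNAs, transcripts without a protein product, some of which act on genes next to their own locus. In RNA of a whole organ, fewer cells of a type and less RNA per cell cannot be told apart.

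Of 72514 features tested, 49 passed an adjusted p of 0.05 (limma, Benjamini-Hochberg), 45 of them higher and 4 lower in OVA spleens. That was 0.0676% of the features. With only the 6 arrays of day 14 in the model, or with a replicate block, no feature passed (8841 and 9251 had an unadjusted p under 0.05, limma). Leaving out any 1 of the 12 arrays gave 2 to 1978 features. A feature is a probe, or 1 probe for each gene that could be named, and its level is the log2 signal minus the 75th percentile of its array. Of 2529 named genes 2 passed, 0.0791% of them, and both were higher in OVA: Gm31089 and Gm34699, long non-coding genes of no assigned role. The median difference over all features was 0.05 on the log2 scale, and 10678 features had an unadjusted p under 0.05. The 6 arrays taken alone allow 15 ways to choose 2 controls, so that an exact permutation test of a single feature could not give a p under 0.0667.

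OVA and control cannot be told apart from the slide: the 4 OVA arrays lay on 1 slide and both control arrays on another. The signal at the 75th percentile was 267 to 288 on the OVA arrays and 320 to 368 on the control arrays. Between 57.5% and 75.8% of the spots were well above background on the OVA arrays, against 72.4% and 80.0% on the controls. The lowest of these was OVA array 2, and on OVA array 4 the scanner software marked 1248 spots as outliers. The 8 spike-in RNAs with at least 95% of spots well above background read higher on the OVA arrays by log2 differences of 0.12 to 0.39, and 4 of the 8 did so without overlap. The gap between the 3′ and 5′ probes of Pgk1, a housekeeping gene, was 2.61 to 2.89 on OVA arrays and 2.90 and 3.02 on controls, and that of Gapdh was -2.81 to -2.49 against -2.58 and -2.45. The part of depth, slide or RNA quality in the results was not tested. None of the 48 markers of spleen cell types listed for a check of the tissue had a named probe, so the tissue label was not checked here.

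Gm34699 lies on chromosome 13 at 89499220-89539669 (GRCm38.p6), on the minus strand. Its upstream end is 860 bases from Hapln1, which encodes a link protein of hyaluronan-rich matrix and is read on the plus strand. RefSeq gives Gm34699 a pair of start sites. Both windows are shown because this gene is 1 of 2 named genes that passed; each holds 250 bases before and 50 after the start, 5′ to 3′ on the minus strand, from RefSeq (GRCm38.p6).
Gm34699 start near Hapln1, chr13:89539620-89539919: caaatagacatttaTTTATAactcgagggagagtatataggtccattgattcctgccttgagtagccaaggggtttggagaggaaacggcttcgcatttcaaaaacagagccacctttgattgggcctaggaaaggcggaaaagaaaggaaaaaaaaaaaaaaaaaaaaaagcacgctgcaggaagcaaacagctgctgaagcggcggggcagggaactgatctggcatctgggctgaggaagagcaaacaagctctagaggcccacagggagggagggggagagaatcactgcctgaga
Gm34699 inner start, chr13:89528361-89528660: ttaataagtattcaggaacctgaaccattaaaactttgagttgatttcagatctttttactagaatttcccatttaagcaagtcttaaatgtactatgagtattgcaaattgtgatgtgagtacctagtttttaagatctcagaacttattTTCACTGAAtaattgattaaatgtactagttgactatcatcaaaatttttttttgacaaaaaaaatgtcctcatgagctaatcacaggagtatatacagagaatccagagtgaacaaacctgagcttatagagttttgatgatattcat
Capitals mark matches to 5 motifs searched on both strands. STAT factors were searched as TTCNNNGAA, and STAT6 as the same outer letters with 1 more free base in the middle. For GATA factors the motif was AGATAA and for the TATA box TATAAA. The NF-kB motif was GGG, then 5 free bases, then CC. The window near Hapln1 held 1 match, to TATAAA, which 13.6% of 32851 promoter windows of this length hold. The inner window held 1 match, to TTCNNNGAA, which 8.3% of the windows hold. The other motifs had no match in either window; they occur in 6.95% (STAT6), 50.8% (NF-kB) and 11.2% (GATA) of the windows. A match describes the letters and is no evidence of binding.

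Gm34699 stood at -1.76, -1.82, -1.80 and -1.85 in the 4 OVA spleens and at -2.55 and -2.41 in the 2 control spleens. The OVA values spanned 0.10 log2 units and all lay above both controls, by at least 0.56. The difference was 0.67 ± 0.10 (SE, log2), a 1.60-fold higher level, with an adjusted p of 0.0433 (limma). It was well above background on all 6 arrays, and neither of its spots lay in the bright area of control array 1 described below. On day 28 OVA and control differed by -0.04 (adjusted p = 0.844). The difference between the days was -0.71 ± 0.14 (SE, adjusted p = 0.0287, limma).

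The call of Gm34699 was close to the threshold. It was lost in 21 of 28 alternative ways of processing, with differences of 0.42 to 0.75 throughout. With only the 6 arrays of day 14 in the model the adjusted p was 0.328, and with the bright area of control 1 left out it was 0.0544.

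Gm31089 lies on chromosome 18 at 83218089-83236190 (GRCm38.p6) and has no protein-coding gene within 100 kb in the RefSeq table. It stood at -2.93, -3.14, -3.08 and -3.14 in OVA spleens and at -4.60 and -4.54 in controls. It was well above background on 3 of 4 OVA arrays and on neither control array. Its level in controls is therefore only bounded, and with the reported processing it was at least 2.53-fold higher in OVA (measured difference 1.50 ± 0.12, SE, log2, adjusted p = 0.0052, limma). The bound holds for that processing only. Over the alternatives the measured difference was 0.52 to 1.63, and the lowest came with normexp background correction. The bound sets each control array at the higher of its own reading and the lowest signal well above background on that array. It takes the mean of all 4 OVA arrays, the dim one included. On day 28 the measured difference was 0.63 (adjusted p = 0.00957), and the change between days was -0.86 ± 0.18 (SE, adjusted p = 0.0321). The 2 controls of day 28 lay at -3.97 and -4.13, above those of day 14 and below all OVA spleens of day 14. The call was lost in 2 of 27 alternatives, with the 6 arrays alone (adjusted p = 0.193) and with a replicate block (0.0537).

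**Figure D1:**
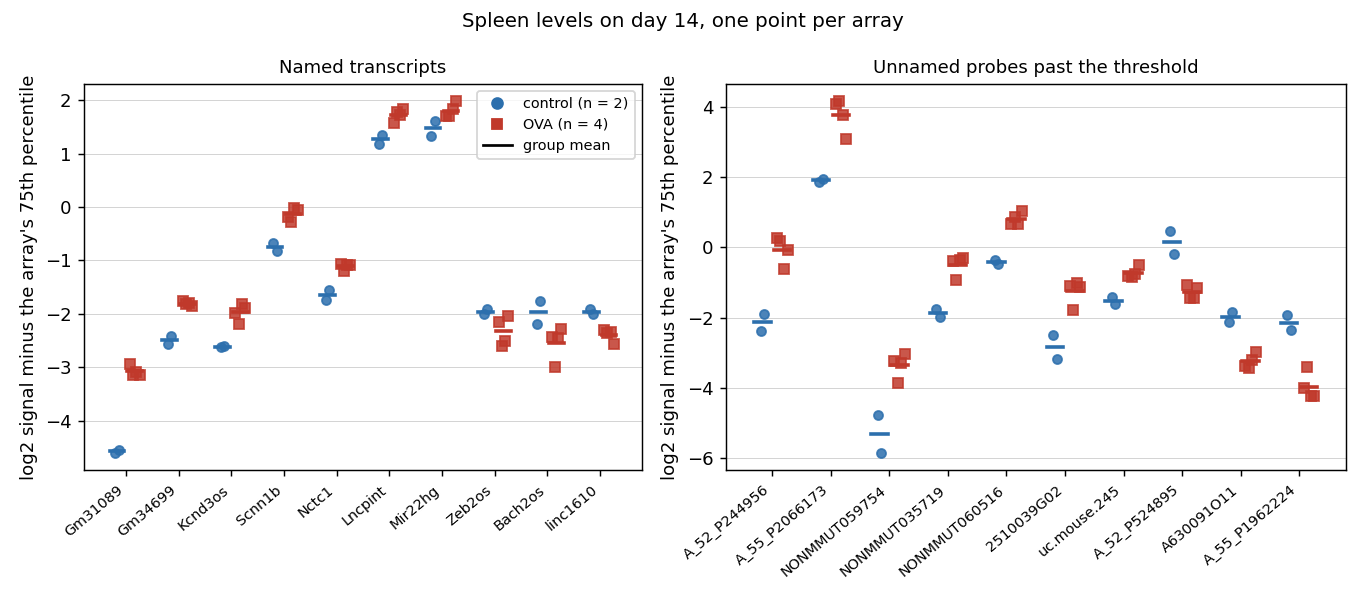
Levels on day 14, 1 point per array: the y axis is the log2 signal minus the 75th percentile of the array, circles are the 2 controls, squares the 4 OVA spleens and lines the group means. The left panel holds named transcripts, of which only Gm31089 and Gm34699 passed the threshold, and the right panel unnamed probes that passed; in each of the features drawn the groups do not overlap.

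Among named transcripts whose symbol is more than a model or clone number, and with a signal well above background on all 6 arrays, 15 had groups that did not overlap, an unadjusted p under 0.05 and no spot in the bright area; 14 were higher and 1 lower in OVA. None passed the adjusted threshold. Over all features, the OVA arrays lay above both controls without overlap in 16.2% and below both in 6.89%, so such a split is common here. The differences were largest, among these 15, in Kcnd3os, Scnn1b and Nctc1. The Scnn1b probe reads a non-coding RNA from the locus of ENaC beta, part of the sodium channel of epithelia, and stood at -0.19, -0.28, -0.03 and -0.06 in OVA and at -0.67 and -0.83 in controls. It had the lowest adjusted p of these genes (0.0852, limma), for a difference of 0.61 ± 0.12 (SE, log2). On day 28 it differed by 0.46 (adjusted p = 0.0294), and the difference between days was -0.15 (adjusted p = 0.64).

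Kcnd3os, read from the strand opposite the potassium-channel gene Kcnd3, stood at -1.98, -2.19, -1.81 and -1.88 in OVA and at -2.62 and -2.60 in controls, with a difference of 0.64 ± 0.14 (SE, adjusted p = 0.105). Nctc1, a non-coding gene of the imprinted Igf2-H19 region, stood at -1.06, -1.20, -1.08 and -1.09 in OVA and at -1.75 and -1.55 in controls, with a difference of 0.54 ± 0.11 (SE, adjusted p = 0.0939). In both, the lowest OVA spleen was array 2, the array with the fewest spots above background, and it still lay above both controls.

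Lncpint, a long non-coding RNA induced by p53, read 1.57, 1.77, 1.71 and 1.84 in OVA and 1.19 and 1.35 in controls (0.46 ± 0.12, SE, adjusted p = 0.144). On day 28 the difference was -0.20, and the change between days, -0.66 ± 0.17, did not pass (adjusted p = 0.0573). Mir22hg, the host transcript of the microRNA miR-22, read 1.71, 1.69, 1.83 and 1.98 in OVA and 1.33 and 1.61 in controls (0.33 ± 0.11, SE, adjusted p = 0.227). The margin was small: the higher control and the lowest OVA spleen were 0.08 apart.

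Mir22hg lies on chromosome 11 at 75461539-75466690 and its span holds the miR-22 hairpin. The microRNAs themselves were not read by a probe matched here. Their mature sequences from RefSeq (GRCm38.p6) are shown to identify what this host transcript carries, with the seed, bases 2 to 8, in capitals.
mmu-miR-22-5p, chr11:75463734-75463755: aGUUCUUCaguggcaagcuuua
mmu-miR-22-3p, chr11:75463772-75463793: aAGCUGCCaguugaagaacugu
The 2 seeds differ, so the arms belong to different seed groups.

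Of the 14 higher genes, the 8 with the largest differences are described, and the rest of these 8 were Kif4-ps, a pseudogene of a mitotic kinesin (0.53 ± 0.18, SE, adjusted p = 0.23), Marcksl1-ps4, a pseudogene of an actin-binding protein of the MARCKS family (0.39 ± 0.12, adjusted p = 0.197), and Kis2 on chromosome X (0.36 ± 0.15, adjusted p = 0.283). Kis2 and Marcksl1-ps4 were bright, at 4.31 to 4.56 and 2.97 to 3.17 in OVA. Whether a pseudogene probe also reads the parent mRNA was not checked. The only lower gene was linc1610, a long intergenic transcript, at -2.30, -2.35, -2.34 and -2.56 in OVA and -1.91 and -2.0 in controls (-0.43 ± 0.17, SE, adjusted p = 0.274).

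Of 26 listed non-coding RNAs studied in immune cells, 10 were tested and none passed, where 0.0791% of all named genes did. Their median difference was 0.12, against 0.05 over all features. Above both controls without overlap lay 4, and below both lay 3, which is 40% and 30% of the list, against 16.2% and 6.89% over all features; with 10 members nothing is read from this. The 4 above were Lncpint, Mir22hg, AW112010 and Trp53cor1. AW112010, induced by interferon-gamma and by bacterial products, read 3.82, 4.08, 3.69 and 3.72 in OVA and 3.51 and 3.56 in controls (adjusted p = 0.465). Trp53cor1, the p53-induced lincRNA-p21 beside the cell-cycle inhibitor gene Cdkn1a, differed by 0.27 ± 0.12 (SE, adjusted p = 0.328).

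The 3 below were Bach2os, Zeb2os and Mirt2. Bach2os lies at Bach2, a repressor that restrains plasma-cell and effector T cell differentiation, and read -2.44, -2.99, -2.45 and -2.27 in OVA and -2.19 and -1.75 in controls (-0.57 ± 0.20, SE, adjusted p = 0.23). The gap between the highest OVA spleen and the lower control was 0.08. Zeb2os lies at Zeb2, a transcription factor of myeloid and effector lymphoid cells, and read -2.15, -2.59, -2.51 and -2.03 in OVA and -2.01 and -1.91 in controls. Its difference was -0.36 ± 0.17 (SE, adjusted p = 0.343), where the day 28 difference was 0.84 (adjusted p = 0.0102). The change between days was 1.20 (adjusted p = 0.0288, limma).

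Mirt2, a brake on signalling from the endotoxin receptor TLR4, read -4.04, -4.28, -3.65 and -3.84 in OVA and -3.58 and -2.85 in controls (-0.74 ± 0.34, SE, adjusted p = 0.336). Its controls differed from each other by 0.73, about as much as the groups did. OVA array 2 was again the lowest, and Mirt2 was well above background on 3 of the 4 OVA arrays. Ifngas1, which lies near Ifng and promotes interferon-gamma expression, and Morrbid, which sets the lifespan of myeloid cells, had overlapping groups, with differences of -0.14 ± 0.20 and -0.04 ± 0.19 (SE; adjusted p = 0.782 and 0.953). The Ager probe, which reads a non-coding RNA of the gene for the receptor of advanced glycation end products, differed by -0.41 ± 0.17 (SE, adjusted p = 0.303) without overlap, but by 0.02 with normexp background correction, so its direction depended on the processing. It was well above background on 3 of the 4 OVA arrays.

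No tested probe could be named for a protein-coding mRNA of the T helper 2 and IgE pathway, so non-coding neighbours of these genes are described. Of 35 listed allergy genes, 3 had a tested neighbour within 100 kb. Gm41832 overlaps Il33, an alarmin that activates type 2 immunity, and differed by 0.23 ± 0.18 (SE). Gm30989 overlaps Stat6, which carries the signal of interleukin-4, and differed by 0.08 ± 0.14. Gm8493 lies 723 bases from Crlf2, a receptor subunit for the cytokine TSLP, and differed by 0.06 ± 0.15. All 3 had overlapping groups and adjusted p of 0.603 to 0.885, and the sign of all 3 turned with spike-in scaling. What these neighbours say of the genes beside them was not tested.

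Beside B cell and plasma cell genes 3 were tested, Bach2os, Gm42266 (51621 bases from Bach2, 0.28 ± 0.13, SE, adjusted p = 0.359) and Gm31527 (at Bcl6, the regulator of germinal centres, 0.21 ± 0.16, adjusted p = 0.566). The 2 transcripts beside Bach2 thus had values of opposite sign, and neither passed. Of 10 beside T cell genes, none passed and the median was 0.07. Gm39759, 417 bases from Il2ra, the interleukin-2 receptor gene induced on activated T cells, read -2.08, -2.52, -2.39 and -2.45 in OVA and -2.81 and -3.04 in controls (0.56 ± 0.17, SE, adjusted p = 0.187). Gm11802 at Tox differed by 0.44 ± 0.16 (adjusted p = 0.233), and Gm39256 near Maf by -0.27 ± 0.16 (adjusted p = 0.457).

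Of 8 transcripts beside myeloid and dendritic cell genes none passed, and the median was -0.17. Gm32908, at the granulocyte colony-stimulating factor receptor gene Csf3r, read -4.40, -4.79, -4.29 and -3.98 in OVA and -3.86 and -3.42 in controls (-0.73 ± 0.21, SE, adjusted p = 0.174). It was well above background on 1 OVA array and on both controls. Gm35611 near Cebpa differed by -0.71 ± 0.32 with overlap (adjusted p = 0.331) and has a spot in the bright area of control 1. Of 8 beside erythroid and stem cell genes none passed (median 0.04). Neighbours of inflammatory and of proliferation genes, 4 and 5 tested, had medians of 0.02 and -0.06 and none passed.

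Groups set by the kind of transcript held no call either. Of all named genes 0.0791% passed. At that share most lists as short as these and those above hold no call, so nothing is read from it. Of 7 host genes of small nucleolar RNAs, 5 had a lower mean in OVA (median -0.10) and none passed; Snhg7 differed by -0.22 ± 0.11 (SE, adjusted p = 0.373) and Snhg8 by -0.17 ± 0.14 (adjusted p = 0.585). Of 6 imprinted-locus RNAs 4 had a higher mean (median 0.23), led by Nctc1, with Rian at 0.38 ± 0.23 (adjusted p = 0.483). Over all features 58.6% had a higher mean in OVA. None of 40 opposite-strand transcripts, 29 pseudogenes or 32 non-coding transcripts of protein-coding genes passed, with medians of 0.05, -0.00024 and 0.09. Among these, Atad3aos, opposite a mitochondrial ATPase gene, differed by 0.35 ± 0.14 (adjusted p = 0.273). The pseudogene Tmem181c-ps differed by 0.38 ± 0.12 (adjusted p = 0.201) and has a spot in the bright area.

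Most of the features that passed carry no gene name here. They were 21 catalogue probes (18 higher, 3 lower), 16 NONCODE transcripts (all higher), 6 RIKEN cDNA clones (5 higher, 1 lower), 5 RefSeq non-coding transcripts (all higher, both named genes among them) and 1 ultraconserved element. None of 560 Ensembl transcripts and none of 17 array-named transcripts passed, where 0.0676% of all features did. Of the 45 higher features, 26 were at least 2-fold higher in measured signal, and 33 were well above background on all 6 arrays. Of all 72514 features tested, 53785 were well above background on all 6, a share close to that of the 45. The median level of the 49 was -2.20, against -1.24 over all features, a dimmer signal.

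**Figure D2:**
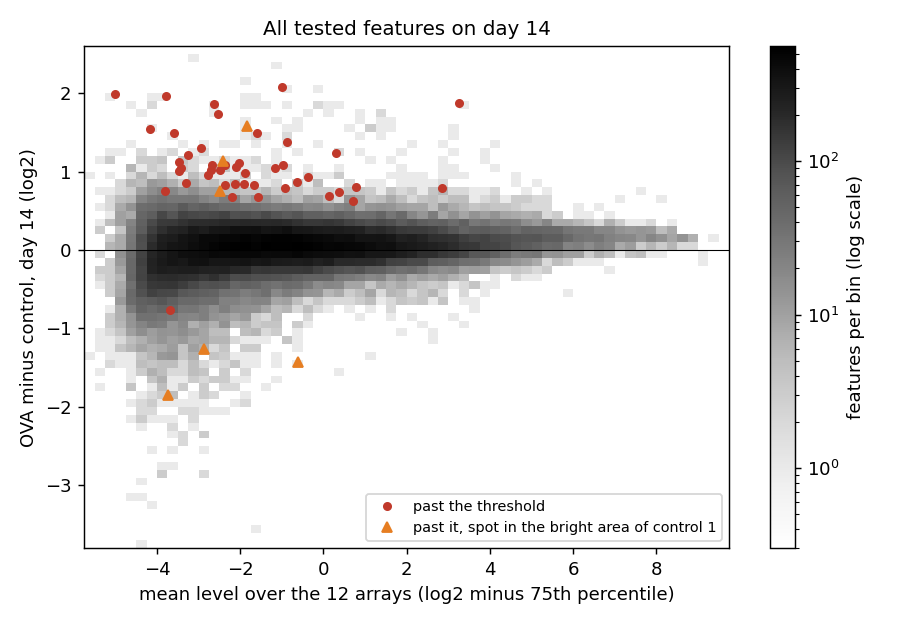
Difference between OVA and control on day 14 (y axis, log2) against the mean level over the 12 arrays (x axis, log2 minus the 75th percentile) for 72514 features; shading gives features per bin on a log scale, and symbols the 49 that passed. Of the 4 that passed as lower, 3 are triangles, which mark features with a spot in the bright area of control 1; many unmarked features differed by more but varied more between replicates.

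Among the 49 features past the threshold, the catalogue probe A_52_P244956 had the largest difference; it read 0.27, 0.18, -0.61 and -0.08 in OVA and -2.38 and -1.90 in controls. That is a 4.22-fold higher level (2.08 ± 0.25, SE, log2, adjusted p = 0.024, limma), and it was higher on day 28 too, by 1.50 (adjusted p = 0.0048). A_55_P2066173 stood at 4.11, 4.18, 3.77 and 3.09 in OVA and 1.87 and 1.96 in controls (3.67-fold, adjusted p = 0.0419). A_55_P1966369 was 3.64-fold higher (adjusted p = 0.0321), with 1 of 2 controls well above background. The lowest OVA spleen lay above the higher control by 1.29, 1.14 and 1.04 log2 units in these 3.

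Among NONCODE transcripts, NONMMUT035719 read -0.39, -0.93, -0.35 and -0.29 in OVA and -1.75 and -1.97 in controls (2.59-fold, adjusted p = 0.0321). NONMMUT059754 was well above background on 3 OVA arrays and neither control, and was at least 2.17-fold higher with the reported processing (adjusted p = 0.0321). Its measured log2 difference was 0.59 to 2.50 over the alternatives. NONMMUT036346 and the RIKEN clone G270002J22 also passed (adjusted p = 0.0494 and 0.0239), although no day 14 array read either of them well above background, so no fold is given. NONMMUT060516, named after its values were seen, had the second lowest adjusted p (0.0108) and read 0.68, 0.86, 0.68 and 1.05 in OVA and -0.37 and -0.46 in controls (2.35-fold).

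The RIKEN clones 2510039G02 and A630093A06 were 3.00-fold and 1.91-fold higher (adjusted p = 0.0321 and 0.024). The unnamed RefSeq transcripts that passed were 3: XR_870718.1 at least 2.05-fold higher, XR_405725.2 2.03-fold and XR_396353.1 1.81-fold (adjusted p = 0.0321, 0.0419 and 0.0321). The bound of XR_870718.1 holds for the reported processing, and its measured log2 difference was 0.39 to 1.27 over the alternatives. The ultraconserved element uc.mouse.245 read -0.82, -0.85, -0.77 and -0.51 in OVA and -1.42 and -1.63 in controls, 1.72-fold higher (adjusted p = 0.0433). Ultraconserved elements are stretches of genome kept nearly identical among mammals, some of which are transcribed.

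Of the 4 features that passed as lower, 3 rest in part on an uneven area of 1 control array. Control array 1 carries a narrow bright streak. In the rectangle that holds most of it, 37.1% of 7019 spots read more than 1 log2 unit above the median of the other 11 arrays, against 2.96% elsewhere on the array. Of the features tested, 7.03% have a spot in the rectangle, as did 3 of the 4 lower features and 3 of the 45 higher ones.

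**Figure D3:**
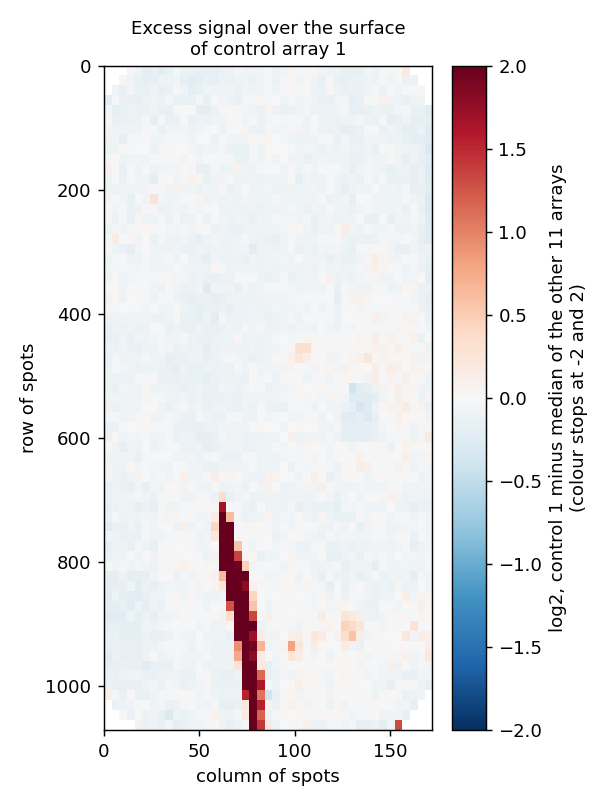
Surface of control array 1 by row and column of spots, coloured by the median log2 excess of control 1 over the median of the other 11 arrays. The narrow red streak holds the spots that 3 of the 4 lower features rest on in part; it runs slightly past the rectangle used to leave it out.

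A_52_P524895 has 2 spots. On control 1 the spot in the rectangle read 1.61 and the other -0.67, a gap of 2.28, where control 2 read -0.13 and -0.22 at the same places. A630091O11 read -0.90 in the rectangle and -3.35 outside it on control 1, and -1.88 and -1.82 on control 2. A_55_P1962224 read 0.59 in the rectangle and -4.46 outside it, and on control 2 its spots also disagreed, at -3.56 and -1.16. In each of the 3 the spot inside was the brighter one of control 1, and the software flagged none of these spots as an outlier.

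With the rectangle left out on control 1, 16 features passed, all higher and all among the 49. Leaving it out also moved the scale of control 1, so features without a spot there changed too. Gm34699, with no such spot, went from -2.55 to -2.47 on control 1, and its difference from 0.67 to 0.63. The median difference over all features went from 0.05 to 0.009. OVA lay above both controls in 12.4% of features in place of 16.2%, and below both in 9.24% in place of 6.89%. How many lost calls this shift accounts for was not tested. The differences of the 3 lower features went from -1.43 to -0.90 (A_52_P524895, adjusted p = 0.0996), from -1.26 to -0.69 (A630091O11, 0.377) and from -1.84 to -0.62 (A_55_P1962224, 0.577). The fourth lower feature, A_55_P2062861, has no spot in the rectangle and differed by -0.77 (adjusted p = 0.0465), then by -0.81 (0.0515); with normexp background correction the difference was -0.07 (0.666). The 3 higher features with such a spot were NONMMUT015690, A_52_P476189 and 2510039G02. They changed little, from 1.13 to 1.04, from 0.76 to 0.77 and from 1.58 to 1.56, and of them NONMMUT015690 still passed (adjusted p = 0.0245). In a wider rectangle, chosen after the data were seen, 31 features passed, 28 higher and 3 lower, with 28 of the 49 among them.

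The balance of directions depended on the scaling. With arrays scaled to the spike-in RNAs in place of the 75th percentile, the median difference moved from 0.05 to -0.21. In that setting 442 features passed, and 7.24% of them were higher, against 91.8% here. All 45 higher features still had a positive difference there, and 26 of them passed. The share of features with OVA above both controls fell from 16.2% to 1.55%, and the share below rose to 29.0%. Which scale is nearer to the RNA content of the spleens was not tested. The difference also moved with brightness at the reported scale: its median was -0.16 in features with a level under -4, of which 34.1% were positive, and 0.10 in features above 2, of which 74.9% were positive.

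Single arrays moved the count as well. Without OVA arrays 1, 2, 3 and 4 of day 14 it was 14, 86, 19 and 5. Without control 1 of day 14 it was 47, with 14 of the 49 among them, and without control 2 it was 1978, where the only day 14 control left is the array with the streak. Leaving out an array of day 28, which changes only the estimate of spread, gave 9 and 9 (controls 1 and 2) and 9, 8, 2 and 16 (OVA 1 to 4).

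**Figure D4:**
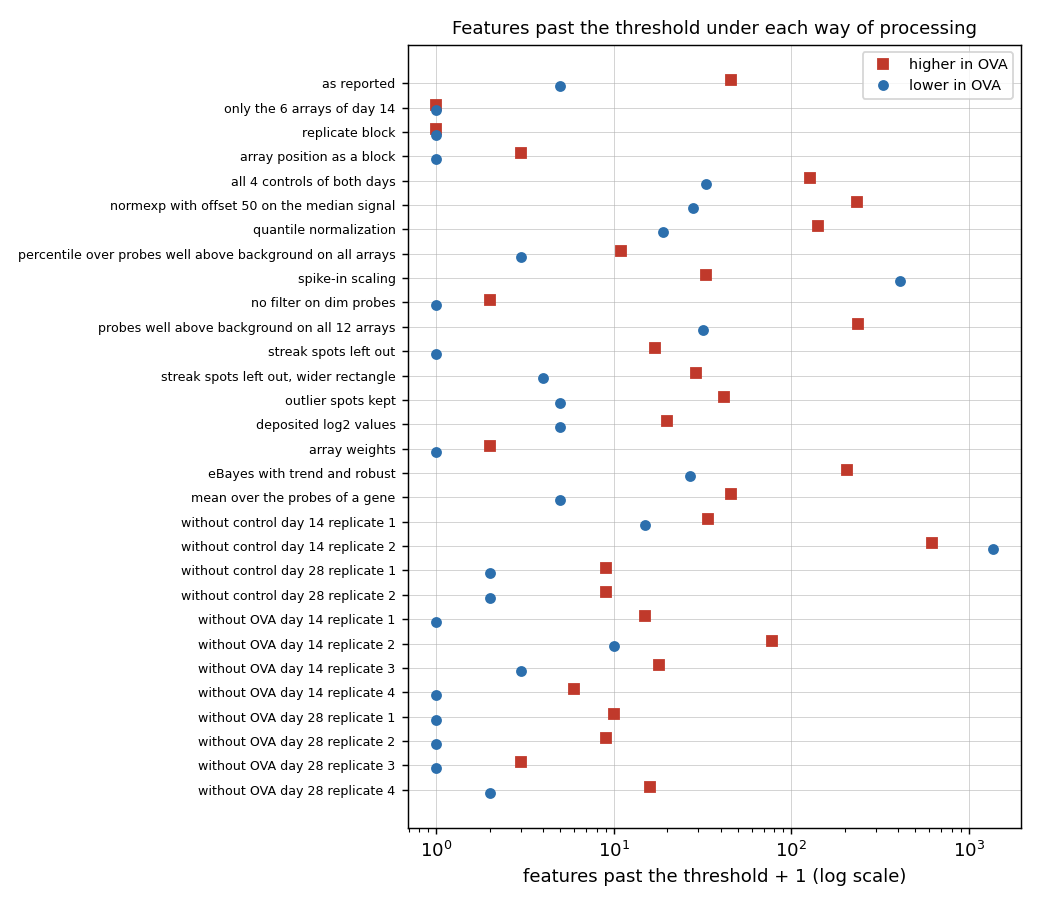
Number of features past the threshold (x axis, plus 1, log scale) under each way of processing the arrays (y axis), split into higher (squares) and lower (circles) in OVA. With all 12 arrays and the reported settings 45 were higher and 4 lower; the counts run from 0 (only the 6 arrays of day 14, or a replicate block) to 1978 without control 2 of day 14.

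On day 28, 14.1% of the features passed between OVA and control. Of the 45 features higher on day 14, 6 passed as higher on day 28 too, and 35 had a positive difference there, with a median of 0.18 against 1.05 on day 14. Over all features 45.9% had a positive difference on day 28, with a median of -0.03. The size on day 14 was used to choose the 45 features, so their smaller median on another day is a description. The interaction term between the days passed for 2.95% of all features and for 30 of the 49, of which 26 had a lower and 4 a higher value on day 28; these 4 are the features that were lower on day 14. A_52_P524895 was lower on day 14 and higher on day 28, by 0.96 (adjusted p = 0.0111); on day 14 it is 1 of the features with a spot in the bright area. Each day's OVA arrays had a slide of their own, so the days cannot be told apart from the slides.

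**Figure D5:**
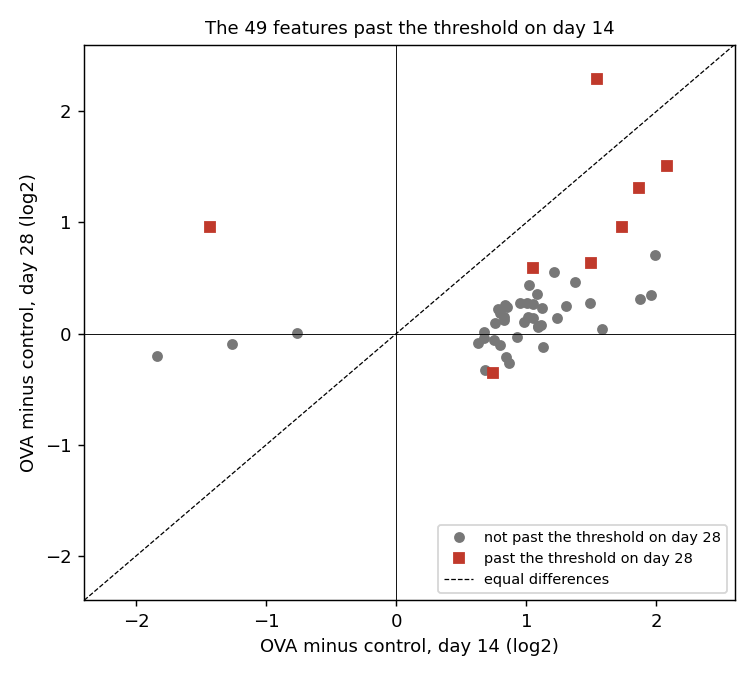
Difference between OVA and control on day 28 (y axis, log2) against day 14 (x axis, log2) for the 49 features that passed on day 14; red squares also passed on day 28, and the dashed line marks equal differences. Most of the 45 higher features lie near 0 on day 28, with a median of 0.18.

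The 2 controls of day 28 lay on the same slide as those of day 14. For the 45 higher features their mean was above that of the day 14 controls in 41, by a median of 0.42, against 55.2% and 0.03 over all features. OVA spleens of day 14 lay above the day 28 controls by a median of 0.63 in these 45, against 0.01 over all features. In 37 of the 45, all 4 OVA arrays exceeded all 4 controls of both days. For the 4 lower features the day 28 controls lay below the day 14 controls in every case, by a median of 1.04, and 1 of the 4 lay below all 4 controls. With all 4 controls as the comparison group 159 features passed, among them 39 of the 49 (37 higher and 2 lower). The OVA and control levels of day 14 were used to choose the 49. These counts are therefore in part fixed by that choice and are a description. The share of all features in which OVA lay beyond all 4 controls is not given here, so nothing is read from the counts against all 4.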

How the data were processed

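Spleen RNA was read on 12 single-colour Agilent arrays, and the 6 of day 14 are compared here. The deposited scanner files give each spot's intensity, read out by Agilent's Feature Extraction (version 11.5.1.1 per the file headers), while the submitters' processing notes name version 9.1. The processed signal, already background-corrected per the file headers, was used. The log2 table that the authors deposited covers the catalogue probes of the same arrays and served as an alternative.

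From the intensities, log2 signal minus each array's 75th percentile was computed over non-control spots, outlier spots left out, and spots of a probe averaged (175906 spots, 97836 probes). No non-control spot was saturated. RefSeq accessions named 4658 of 13019 RefSeq probes (GRCm38.p6); 27 array-named probes keep the array's name, and the probe of highest mean stood for a gene. Features well above background on all arrays of at least 1 group were tested. One limma model (limma 3.58.1, R 4.3.3) held all 12 arrays, 4 groups and 8 residual degrees of freedom; an adjusted p under 0.05 (Benjamini-Hochberg over 72514 features) was the threshold. The fit was also run on simulated data with known changes. Noise was drawn independently for each feature and array, with no slide effect or streak, so the run says nothing of these.

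Named in the text are every named gene past the threshold; per probe class the 3 highest and 2 lowest unnamed features past it; of the 15 open to it, the 8 highest and 8 lowest named transcripts without overlap; members of gene lists with the largest statistics; and 13 genes always looked for, of which 10 were tested. NONMMUT060516, NONMMUT016693, A_51_P274465, A_55_P2033997, A_55_P2062861 and features with spots in the streak were chosen after their values were seen. The part of the series, its gene lists and the streak's rectangle were chosen with earlier results of these data known. Alternatives were other scalings, background correction, filters, blocks, weights and leaving out each array.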

Additional observations from a re-analysis of the deposited data

Results flagged for a closer look

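For 18 of the 57 features described, the OVA effect on day 28 differed from that on day 14 by the interaction term (limma, adjusted p under 0.05); each day's OVA arrays had their own slide. The term passed for 2.95% of all features, and many of the 57 were chosen for their difference on day 14, so a smaller effect on day 28 is in part fixed by that choice. Of the 49 features past the threshold on day 14 it passed for 30, for 10 with a replicate block and for 0 with array position as a block. The log2 effect was lower on day 28 than on day 14 (change between days in brackets) for Gm31089 (-0.86), Gm34699 (-0.71) and the pseudogene Tmem181c-ps (-0.73). It was also lower for the NONCODE transcripts NONMMUT059754 (-1.61), NONMMUT015690 (-1.25), NONMMUT060516 (-1.09) and NONMMUT016693 (-0.73). The same held for the RIKEN clones 2510039G02 (-1.54) and A630093A06 (-0.96), the RefSeq transcript XR_870718.1 (-0.89) and the catalogue probes A_51_P274465 (-0.92), A_55_P2033997 (-0.88) and A_52_P476189 (-0.66). The term was positive for Zeb2os (1.20), and for the 4 features that were lower on day 14, A_52_P524895 (2.39), A_55_P1962224 (1.64), A630091O11 (1.17) and A_55_P2062861 (0.77).

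In 3 of the 57 features, 1 OVA spleen of day 14 stood apart from the other 3, and each time it was OVA array 2, the lowest. Its gap to the nearest spleen was 0.92 of the group's range in NONMMUT036346, 0.856 in the RIKEN clone 2510039G02 and 0.841 in NONMMUT035719. Of 8 measures of the arrays themselves, the share of spots well above background stood apart in the same way on OVA array 2 (57.5%, a gap of 0.845 of the range). Chance alone flags about 1 in 20 groups of this kind. Leaving out that array raised the count of features past the threshold from 49 to 86.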

How the results depend on the processing

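The count of 49 features (2 named) past the threshold and the 91.8% that were higher moved with most choices, and each arm of day 14 holds few arrays, all on 1 slide. With only the 6 arrays of day 14, 0 features and 0 named genes passed. Same-numbered arrays of both groups were checked for pairing. Their deviations correlated at 0.07 and 0.32 on day 14, and at -0.18 and 0.16 on day 28. With 2 controls the deviations from their mean mirror each other, so the 2 values of a day are not separate checks. This does not show whether numbers pair the samples. With a replicate block 0 features and 0 named genes passed, and 10 in place of 30 of the 49 passed the interaction between days. With array position as a block, these were 2 features, 1 named (100% higher), and 0 for the interaction. With all 4 controls, 159 features (79.87% higher) and 8 named genes passed; with normexp 260 and 13; with quantile normalization 159 and 11; with the percentile taken over well-measured probes only 12 and 1. Spike-in scaling gave 442 features (7.24% higher), 18 named, and 13 for the interaction. Without a filter on dim probes 1 feature passed, a named gene (100% higher), with 8 for the interaction; among probes well above background on all 12 arrays, 267 features and 8 named genes passed. With streak spots left out, 16 features (100% higher), 1 named, passed, and 31 with the wider rectangle. With outlier spots kept 1 named gene passed. The deposited log2 values cover only 31719 of the features, the catalogue probes, and 21 of the 49. They gave 23 features, among them 20 of these 21, and 13 of the 21 for the interaction. Array weights gave 1 feature, named (100% higher), and 11 for the interaction, and eBayes with trend and robust 232 features and 9 named. At an adjusted p under 0.1, 384 features (79.69% higher) and 16 named genes passed. Leaving out 1 array gave 2 to 1978 features, 1 to 93 named, 31.19% to 100% higher, and 6 to 28 for the interaction; a lone control left is assumed to vary like the other groups. The cause of these moves was not tested. Under another filter fewer or more features are tested, and the part of this in the moves was not tested either. Sign changed in 7 of the transcripts described, none past the threshold (range without 1 array in brackets): Gm8493 [-0.02781 to 0.1573] was -0.1138 with all 4 controls, -0.1927 with spike-in scaling; Gm30989 [-0.02067 to 0.1789] -0.1762 (spike-in); Gm31527 -0.04543 and Gm41832 -0.02567 (spike-in); Ifngas1 [-0.3744 to 0.09383] 0.02051 (normexp); Ager 0.02276 (normexp), from -0.41; Morrbid [-0.2565 to 0.1862], positive without control 2 and, at 0.1095, without OVA 1. The 45 higher features had a positive difference in all 27 alternatives that tested them all, a direction their choice in part fixes.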

Other observations

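The share of features whose groups separated varied with the kind of probe, with no test of that difference. OVA arrays lay above both controls without overlap in 18.3% of 7566 RefSeq non-coding transcripts, 17.2% of 20457 NONCODE transcripts, 15.6% of 11990 RIKEN clones, 15.3% of 31719 catalogue probes and 14.1% of 205 ultraconserved elements. They lay below both controls in 8.09%, 7.03%, 7.52%, 6.26% and 8.29% of these classes. All 16 NONCODE transcripts that passed the threshold (limma, adjusted p) were higher in OVA, by 0.67 to 1.96 on the log2 scale. At the 75th percentile scale the median difference of each class, Ensembl transcripts included, lay between 0.02 and 0.05.

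The 2 controls of day 14 correlated at 0.98 across features, which are not independent replicates, and the OVA spleens at 0.988 to 0.993. The median SD within groups was 0.17 on the log2 scale, with 0.40 in features at a level under -4 and 0.13 in those above 2.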
